A study of Mus musculus with 96 samples.

Results

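Whole-tissue RNA and immunoprecipitated RNA of mouse striatum were compared between R6/2 mice and NCAR controls at 1 month of age. These are 16 of the 96 libraries of the series, taken by their labels, with 4 libraries of input RNA (RNA of the whole tissue) and 4 of IP RNA (RNA recovered by immunoprecipitation) for each genotype. R6/2 mice carry a transgene with the start of the human huntingtin gene and an expanded CAG repeat, driven by the human huntingtin promoter, and are a rapidly progressing model of Huntington's disease. The controls are labelled NCAR, both groups are CBA x C57BL/6, and all 16 libraries are polyA RNA from striatum into which an adeno-associated virus had been injected. The virus cargo and the target of the immunoprecipitation are not named in the labels; the title of the series speaks of astrocytes. Whether the libraries of a group stem from different mice is not stated either, so the p-values given measure the spread between these libraries.

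The striatum is built mainly of medium spiny neurons, which receive cortical glutamate and midbrain dopamine signals and lose transcripts of their identity genes early in models of Huntington's disease. Astrocytes surround their synapses, take up glutamate and buffer potassium. RNA recovered from a tagged cell type by immunoprecipitation can be read against RNA of the same tissue, and the question here is which early genotype differences appear in one RNA type and not in the other. The quantity that answers it is the interaction, the R6/2 minus NCAR difference in IP minus the same difference in input, in log2 units with its SE. A positive interaction means that R6/2 stood higher, relative to NCAR, in IP than in input.

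Depth was 44.17 to 71.26 M reads in IP and 29.59 to 43.52 M in input. In NCAR, 30 of 30 astrocyte markers were higher in IP than in input, with a median log2 of 2.97, against 5518 of 15901 genes called higher (34.7%) and 5896 called lower (37.1%); scaling by read totals alone gave 3718 and 8305. All 30 medium spiny neuron markers (median -1.44) and all 15 microglia markers (median -4.18) were lower in IP, while 14 of 20 striatal interneuron markers were higher and 3 lower. Medium spiny neuron RNA was still present in IP, at a summed 8160.3 to 9132 CPM (reads of a gene per M reads of the scaled library) in NCAR against 23735 to 25673 CPM in input. NCAR IP 1 lay farthest from its group, with a median absolute log2 distance of 0.299 against 0.140 to 0.160 in the other NCAR IP libraries, and R6/2 IP 2 lay at 0.211. Those libraries, NCAR input 1 and R6/2 input 4 had the highest summed interferon response genes of their groups. Without NCAR IP 1 and R6/2 IP 2 the number of genes called for the interaction stayed at 0, and the same held without all 4 of these libraries.

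Gm12695, the predicted gene into which the R6/2 transgene is reported to have inserted (chr4:96723647-96785186, GRCm38), separated the genotypes as labelled and was chosen after its values were seen. Its level was 16.1, 15.2, 15.5 and 13.5 CPM in R6/2 IP and 0.216 to 0.477 CPM in NCAR IP. In input it was 4.91, 4.74, 6.81 and 5.53 CPM in R6/2 and 0.0826 to 0.212 CPM in NCAR. The groups did not overlap, and the differences of 5.50 ± 0.28 in IP and 5.39 ± 0.28 in input gave an interaction of 0.11 ± 0.40. Mouse Htt (chr5:34761740-34912534) is not the transgene and checks no label. Htt read 214, 262, 264 and 278 CPM in NCAR IP and 304, 294, 300.3 and 309 CPM in R6/2 IP, groups that did not overlap, and lay between 239 and 268 CPM in all input libraries. Its difference was 0.25 ± 0.07 in IP (limma adjusted p = 0.0707) and -0.02 ± 0.07 in input. The interaction of Htt was 0.28 ± 0.10 (limma adjusted p = 0.438). Whether reads of the human fragment were counted at mouse Htt was not tested.

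No gene passed the test for the interaction at 1 month: 0 of 15901 genes (0%) had a limma adjusted p under 0.05, and the smallest adjusted p was 0.0925. A limma fit with voom weights also called 0. At an unadjusted p under 0.05 there were 1349 genes (8.48%) against 795 that make up 5% of those tested, of which 759 (4.77%) were positive and 590 (3.71%) negative. The precision behind this is a median SE of 0.15 among the 11597 genes whose mean level was 5 CPM or more, an unadjusted 95% interval of about 0.32 to each side; no interaction, of whatever size, passed the adjusted test. The fit treats IP and input libraries as independent, and the labels do not say whether they share mice. Leaving out 1 library at a time gave 0 calls except for 6 without R6/2 IP 3 (Adam23, Bcr, Chst1, Cnr1, Gli3 and Inf2), 2 without R6/2 input 3 (Abhd11os and Rps6ka4) and 1 without NCAR IP 2 (Rsrp1). All 9 of these were positive.

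Each side of the interaction had calls of its own. In input, 442 genes were higher in R6/2 (2.78%) and 898 lower (5.65%). In IP, 99 were higher (0.623%) and 203 lower (1.28%). Scaling by read totals alone reversed the balance, to 1430 higher and 650 lower in input and 270 higher and 150 lower in IP. The count in IP rested on single libraries: it was 552 without NCAR IP 1, 189 without NCAR IP 4, 109 without NCAR IP 2 and 103 without R6/2 IP 1, against 302. The count in input was 748 without R6/2 input 2, 793 without NCAR input 2, 815 without R6/2 input 4 and 857 without NCAR input 4, against 1340. Without R6/2 input 2 and 4 together it was 408. Expression varied more within NCAR IP (median SD 0.165 on the log2 scale) than within NCAR input (0.101). The fit shares a single spread per gene over all groups, so the SEs of IP and input do not carry this inequality. Fitted on the IP libraries alone, the IP count was 12. A call in one RNA type that is missing in the other is not by itself a difference between them.

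**Figure D1:**
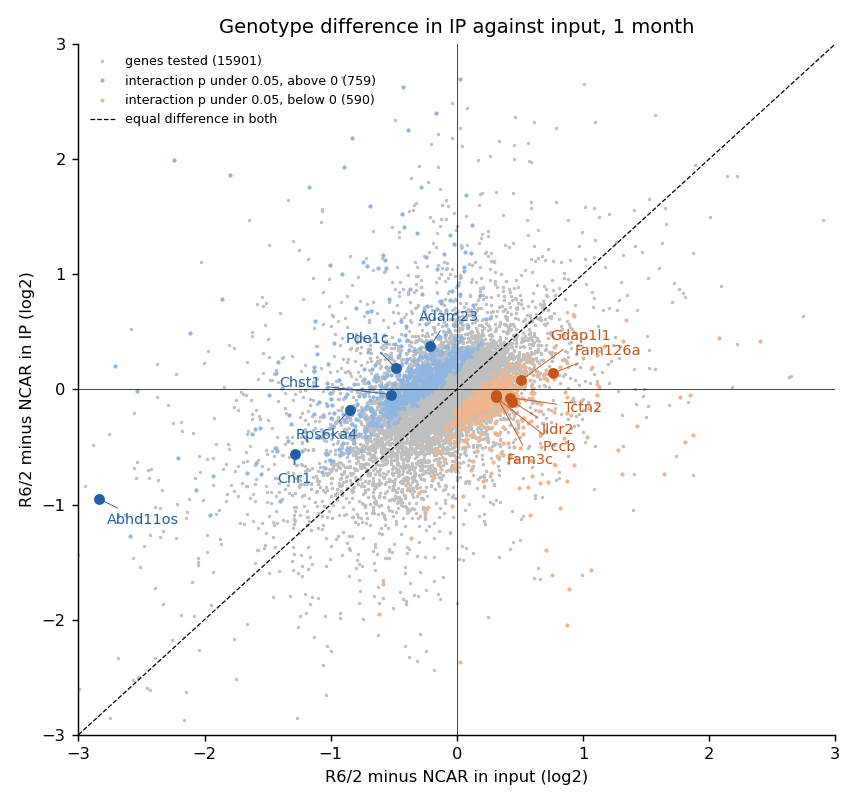
The R6/2 minus NCAR difference in input (x axis) and in IP (y axis), both log2, for 15901 genes; blue and orange points have an interaction p under 0.05 and the 12 named genes are those of smallest p on each side. The genes named in blue lie above the line of equal differences and those in orange below it, and 28 genes lie outside the plotted range.

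The 6 positive genes of smallest p, none called, were Chst1, Rps6ka4, Pde1c, Cnr1, Adam23 and Abhd11os, each with an adjusted p of 0.0925. In 5 of them R6/2 was lower than NCAR in input by a called difference, and the difference in IP was smaller, absent within its error or of the other sign. The interaction p in these same libraries chose the genes, so a gap between input and IP comes with the choice. Cnr1, which encodes the cannabinoid receptor CB1 of medium spiny neuron terminals (chr4:33924593-33948831) and is one of the 30 medium spiny neuron markers, differed most in input among the 5 save Abhd11os. There it fell from 680.3, 759, 738 and 743 CPM in NCAR to 262, 274, 341 and 329.8 CPM in R6/2, and in IP from 266, 276, 285 and 292 to 189, 185, 168 and 219.9 CPM. The genotypes did not overlap in either RNA type. Cnr1 was 2.43-fold lower in R6/2 input (-1.28 ± 0.09, adjusted p = 3.85e-07) and 1.47-fold lower in R6/2 IP (-0.56 ± 0.09, adjusted p = 0.0051). Its interaction was 0.72 ± 0.13, with a 95% interval of 0.46 to 0.99 and an unadjusted p of 2.79e-05.

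Chst1, a carbohydrate sulfotransferase that acts on keratan sulfate (chr2:92599707-92615250), fell in input from 149, 145, 140.1 and 137 CPM in NCAR to 104, 101, 101 and 91.9 CPM in R6/2. The IP libraries read 114, 113, 120.3 and 113 CPM in NCAR and 111, 119, 105 and 112 CPM in R6/2. The genotypes were apart in input and overlapped in IP, with differences of -0.52 ± 0.06 and -0.04 ± 0.06 and an interaction of 0.48 ± 0.08 (95% interval 0.31 to 0.65). Rps6ka4, the kinase MSK2 that phosphorylates CREB and histone H3 (chr19:6829085-6840636), read 56.8, 55.7, 54.1 and 53.5 CPM in NCAR input and 32.5, 26.4, 35.2 and 28.7 CPM in R6/2 input. Its IP values were 36.5, 33.8, 36.6 and 35.6 CPM in NCAR and 28.6, 32.1, 32.0 and 33.3 CPM in R6/2. It fell in input (-0.85 ± 0.08, adjusted p = 1.53e-05) and had -0.18 ± 0.08 in IP (adjusted p = 0.302), with an interaction of 0.67 ± 0.12. The genotypes did not overlap in either RNA type, by a narrow margin in IP.

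Abhd11os (chr5:135012114-135013253, minus strand), a transcript that GENCODE classes as a transcribed unitary pseudogene, had the highest interaction of the 6, 1.88 ± 0.34 (95% interval 1.17 to 2.59). It read 13.8, 11.0, 10.8 and 9.5 CPM in NCAR input and 1.73, 1.17, 2.74 and 1.08 CPM in R6/2 input. In IP it read 11.2, 8.98, 8.09 and 7.36 CPM in NCAR and 3.88, 4.43, 5 and 4.97 CPM in R6/2. It fell 7.13-fold in input (adjusted p = 3.52e-06) and 1.94-fold in IP (adjusted p = 0.0498), with no overlap of the genotypes in either. It overlaps Abhd11 on the other strand by 62 bases, and the use of strand in counting is not given in the sources used here. Abhd11 itself had differences of -0.14 ± 0.09 in input and -0.25 ± 0.09 in IP.

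Pde1c, a calmodulin-dependent phosphodiesterase of cyclic nucleotides, was lower in R6/2 input (31.1 to 36.3 against 45.5 to 52.1 CPM, adjusted p = 0.00152). In IP it was 37.0 to 44.6 CPM in R6/2 and 33.1 to 39.6 CPM in NCAR, a difference of 0.18 ± 0.08 that did not pass (adjusted p = 0.287); its interaction was 0.66 ± 0.11. Adam23, a surface protein of the ADAM family that binds LGI1, was the reverse case among the 6. It rose in IP (258 to 315 CPM in NCAR, 329 to 402 CPM in R6/2, 0.37 ± 0.07, adjusted p = 0.0154). In input it was 446 to 484 CPM in NCAR and 369.9 to 417 CPM in R6/2 (-0.21 ± 0.07, adjusted p = 0.0863), and its interaction was 0.59 ± 0.10.

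The start regions of Chst1, Cnr1 and Rps6ka4, called lower in R6/2 input (Cnr1 also in IP), and of Fam126a, called higher in R6/2 input, are shown. Genes of opposite direction in input can thus be compared. Each is the RefSeq window (GRCm38.p6) from 250 bases before to 50 bases after the gene's start, written 5′ to 3′ on the gene's strand; for Cnr1 it is the first of 3 starts. The RefSeq starts of Chst1 and Fam126a lie downstream of those of the GENCODE genes, so both windows are inside the GENCODE spans. The Cnr1 window lies upstream of its GENCODE span, and only the Rps6ka4 window includes the GENCODE start. Capitals mark GC boxes, GGGCGG on either strand.
Chst1 (chr2:92600867-92601166, plus strand): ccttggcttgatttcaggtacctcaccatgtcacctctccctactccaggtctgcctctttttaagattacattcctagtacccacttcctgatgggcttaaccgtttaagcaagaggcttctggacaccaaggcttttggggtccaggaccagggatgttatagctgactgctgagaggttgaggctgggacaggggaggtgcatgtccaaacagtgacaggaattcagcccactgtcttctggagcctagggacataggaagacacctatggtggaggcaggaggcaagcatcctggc
Cnr1 (chr4:33924014-33924313, plus strand): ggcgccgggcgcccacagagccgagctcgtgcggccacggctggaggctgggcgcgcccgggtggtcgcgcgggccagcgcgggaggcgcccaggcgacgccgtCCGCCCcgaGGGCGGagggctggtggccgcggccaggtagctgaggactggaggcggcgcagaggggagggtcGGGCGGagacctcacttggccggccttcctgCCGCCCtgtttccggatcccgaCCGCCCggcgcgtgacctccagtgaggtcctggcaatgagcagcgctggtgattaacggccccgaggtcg
Rps6ka4 (chr19:6840578-6840877, minus strand): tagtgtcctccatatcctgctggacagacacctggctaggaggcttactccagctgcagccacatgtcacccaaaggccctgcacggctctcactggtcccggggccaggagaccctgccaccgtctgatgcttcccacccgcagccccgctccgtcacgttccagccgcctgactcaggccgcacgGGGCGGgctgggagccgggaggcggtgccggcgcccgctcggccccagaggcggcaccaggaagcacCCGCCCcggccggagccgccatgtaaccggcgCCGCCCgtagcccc
Fam126a (chr5:24030263-24030562, minus strand): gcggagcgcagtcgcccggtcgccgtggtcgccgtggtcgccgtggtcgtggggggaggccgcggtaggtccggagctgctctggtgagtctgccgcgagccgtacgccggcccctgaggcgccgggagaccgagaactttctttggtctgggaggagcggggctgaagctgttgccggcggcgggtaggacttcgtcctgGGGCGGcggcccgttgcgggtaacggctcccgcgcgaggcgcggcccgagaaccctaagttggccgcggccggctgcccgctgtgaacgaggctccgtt
The windows held 0 GC boxes in Chst1, 5 in Cnr1, 3 in Rps6ka4 and 1 in Fam126a, and 35.7% of the 32851 windows of the table held at least 1. Neither the CRE palindrome TGACGTCA nor the EGR site GCGTGGGCG, searched on both strands, was in any of the 4 windows; 1.79% and 0.612% of all windows held them. These matches are letters in a window and not measured binding.

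The 6 negative genes of smallest p, none called, were Fam126a, Ildr2, Fam3c, Pccb, Tctn2 and Gdap1l1, with adjusted p-values from 0.127 to 0.282. All 6 rose in R6/2 input and differed in IP by no more than 0.14. They too were chosen by interaction p, so a gap between input and IP comes with the choice. Fam126a (hyccin, chr5:23915276-24030690), part of the complex that anchors a phosphatidylinositol kinase at the plasma membrane, read 30.8, 34.2, 33.8 and 30.0 CPM in NCAR input and 54.3, 59.0, 49.6 and 55.9 CPM in R6/2 input. In IP it read 39.9, 48.3, 52.8 and 47.0 CPM in NCAR and 53.9, 47.8, 55.2 and 49.8 CPM in R6/2. The genotypes were apart in input (1.7-fold higher, adjusted p = 5.3e-05) and overlapped in IP (0.14 ± 0.09), and the interaction was -0.62 ± 0.12 (95% interval -0.88 to -0.37).

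Pccb (chr9:100982032-101034898), the beta subunit of the mitochondrial propionyl-CoA carboxylase, was higher in IP than in input in NCAR, by a log2 of 1.62 ± 0.06. It read 44.6, 44.8, 43.4 and 41.9 CPM in NCAR input and 54.4, 55.2, 50.9 and 56.1 CPM in R6/2 input. In IP it read 146, 133, 130.3 and 129 CPM in NCAR and 120.2, 122, 139 and 131 CPM in R6/2, overlapping ranges, and its interaction was -0.38 ± 0.09. Ildr2, an immunoglobulin-like membrane receptor, was 56.1 to 63.5 CPM in NCAR input and 73.0 to 93.1 CPM in R6/2 input (0.44 ± 0.08), with an interaction of -0.55 ± 0.11. The secreted protein gene Fam3c rose by 0.31 ± 0.05 in input and had an interaction of -0.36 ± 0.08. Tctn2, which encodes a protein of the ciliary transition zone, had 0.42 ± 0.08 in input and an interaction of -0.49 ± 0.12, and Gdap1l1, a relative of the mitochondrial fission gene Gdap1, had 0.51 ± 0.07 and -0.43 ± 0.10. For these 4 genes the IP ranges of the genotypes overlapped.

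**Figure D2:**
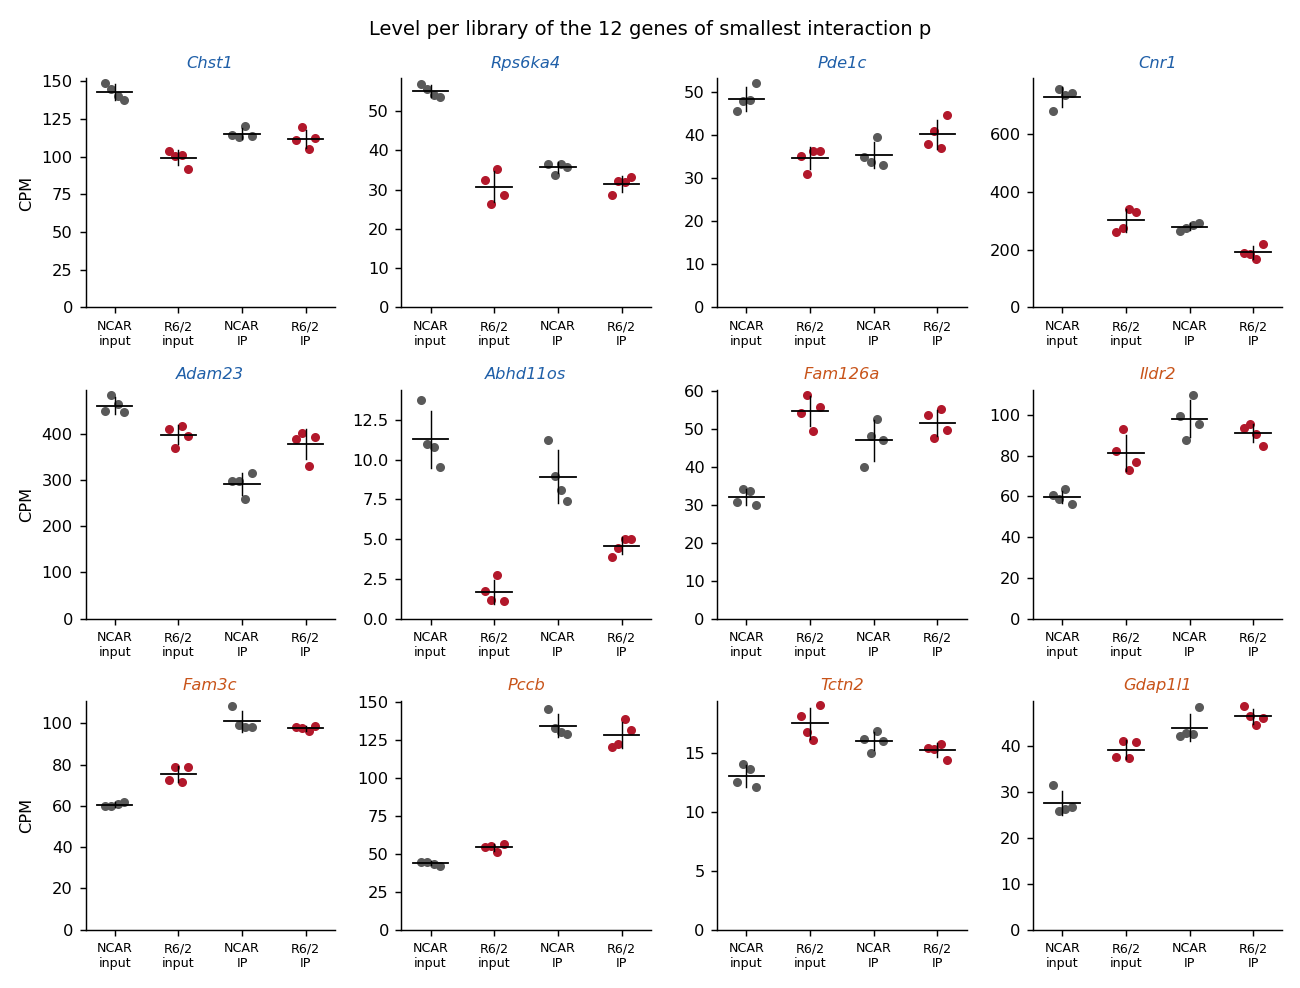
Level in CPM (y axes, from 0) of the 12 genes in each of 4 libraries per group (points), with the group mean (horizontal line) and SD (vertical line); grey is NCAR and red R6/2. The genotypes stand apart in input for all 12 genes, and in IP for Cnr1, Adam23, Abhd11os and, by a narrow margin, Rps6ka4. The genes were chosen by interaction p in these libraries, so standing apart comes in part with the choice, and no share of all genes is given beside it.

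Genes called in both RNA types had the same direction in both. There were 172, which is 12.8% of the input calls and 57% of the IP calls, and 172 of them had the same sign in IP and input. Pde10a, the striatal phosphodiesterase, fell in both, with log2 differences of -1.40 in input and -0.97 in IP. Ppp1r1b, which encodes DARPP-32, read 630.4 to 682 CPM in R6/2 input against 1141 to 1328 in NCAR, and 247 to 317 CPM in R6/2 IP against 471 to 493 in NCAR. Its interaction was 0.19 ± 0.10. Camkk2 (a calcium-dependent kinase kinase), Lynx1 (a modulator of nicotinic receptors) and Ppp1r16b fell in both, with interactions of 0.22, 0.47 and 0.08. Ttn, which encodes titin, rose in both, by 1.13 in input and 1.50 in IP.

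Calls made in input alone were 1168 genes. Over all input calls, 89.4% had the same sign in IP, against 66.6% of all genes, and the sizes were smaller there. The 898 lower genes had a median of -0.53 in input and -0.23 in IP, and the 442 higher genes 0.37 and 0.14. The input values chose these genes, so the smaller size in IP is a description and part of it comes with the choice. The opposite choice gave 203 genes lower in IP with a median of -0.55 there and -0.58 in input, and 99 genes higher in IP with 0.37 and 0.20. Of the genes lower in input and not called in IP, Itga5 (integrin alpha 5), Gsg1l (an auxiliary subunit of AMPA receptors) and Smpd3 (a neutral sphingomyelinase) had log2 differences of -1.42, -1.07 and -0.68 in input. In IP they had -0.54, -0.41 and -0.29. Of those higher in input, Asl (argininosuccinate lyase), Cd200 (an immunoregulatory surface protein) and Hsd17b11 had 0.82, 0.59 and 0.58 in input and 0.19, 0.27 and 0.08 in IP. These examples were taken from the genes of smallest p in their class, after their values were seen.

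The reverse class, called in IP and not in input, held 130 genes, and its leading members were named in the same way. These calls used the spread shared with input, and the IP libraries alone gave 12 IP calls. Rian, a long noncoding RNA of the imprinted Dlk1-Dio3 region, rose in IP from 56.9, 68.9, 69.0 and 69.0 CPM in NCAR to 115, 93.6, 97.9 and 97.7 CPM in R6/2 (0.62 ± 0.08, adjusted p = 0.00167). In input it was 483 to 546 CPM in NCAR and 552 to 678 CPM in R6/2 (0.26 ± 0.08, adjusted p = 0.0626), also without overlap. Wsb1, a substrate receptor of a ubiquitin ligase, rose in IP (9.29 to 11.3 CPM in NCAR, 15.3 to 16.9 CPM in R6/2, 0.62 ± 0.08) and had 0.23 ± 0.08 in input. Hook1, a microtubule adaptor, rose in IP by its call, with 0.38 in IP and 0.17 in input. In NCAR these 3 genes were lower in IP than in input, with log2 values of -2.96, -2.48 and -1.10.

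Acsl3 and Cd81 fell in IP and were higher in IP than in input in NCAR. Acsl3, a long-chain acyl-CoA synthetase, read 1235, 1125, 1291 and 1230.3 CPM in NCAR IP and 969, 914, 989.7 and 965 CPM in R6/2 IP, with no overlap (-0.35 ± 0.05, adjusted p = 0.00418). In input it was 197 to 215 CPM in NCAR and 195 to 199 CPM in R6/2 (-0.08 ± 0.05), overlapping ranges, and its interaction was -0.27 ± 0.08 (adjusted p = 0.312). Cd81, a tetraspanin, read 1016 to 1199 CPM in NCAR IP and 732 to 874 CPM in R6/2 IP (-0.41 ± 0.07), and had -0.15 ± 0.07 in input with an interaction of -0.26 ± 0.10. Trmt61b, a mitochondrial RNA methyltransferase, fell in IP (-0.83 ± 0.12) and had -0.40 ± 0.12 in input (adjusted p = 0.0505).

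Genes that the IP holds less of had mostly positive interactions among those with a small p, and genes that it holds more of mostly negative ones. The classes were taken from NCAR libraries of 2 and 3 months, which are not among the 16: 1699 of 15466 genes (11%) were higher in IP by a log2 of at least 1 with a call at both ages, and 1672 (10.8%) lower. Among the genes lower in IP, 107 had a positive interaction with p under 0.05 (6.40%) and 12 a negative one (0.718%), with a median of 0.15 over the class. Among the genes higher in IP the counts were 30 (1.77%) and 80 (4.71%), with a median of -0.02. Among the other 12095 genes they were 608 and 492, also with a median of -0.02, so the class higher in IP had no lower median than these. Over all 15466 genes the shares were 4.82% and 3.78%. Genes lower in IP were called lower in R6/2 input in 150 cases (8.97%) and in R6/2 IP in 42 (2.51%). Genes higher in IP were called lower there in 73 (4.30%) and 36 (2.12%). Over all 15466 genes these shares were 5.78% in input and 1.31% in IP.

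More medium spiny neuron markers were called lower in input than in IP, though the interaction was called for none of them. Of 30 measured members, 24 fell in input, against 5.65% of all genes, and 14 in IP, against 1.28%; 1, Isl1, rose in both. The median difference was -0.72 in input and -0.40 in IP, and the median interaction 0.29, against medians between -0.02 and -0.01 over all genes. The interaction was above 0 in 27 of 30 members and had a p under 0.05 in 8, all positive, against 4.77% of all genes. The members share the same libraries, so their signs are not independent of each other. The other alternatives left 19 to 25 members lower in input and 10 to 14 in IP. Leaving out 1 library at a time gave 22 to 25 in input and 7 to 15 in IP, with 7 without NCAR IP 2, 8 without NCAR IP 4, 8 without R6/2 IP 1 and 9 without NCAR IP 3. In bulk RNA, fewer cells of a type and less RNA per cell cannot be told apart.

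Among these markers, Rgs9, a regulator of striatal G protein signalling, read 699.5, 739.7, 635 and 701 CPM in NCAR input and 313, 329, 379.6 and 361 CPM in R6/2 input. In IP it read 268, 288, 304 and 303 CPM in NCAR and 176, 212, 173 and 199.7 CPM in R6/2. It fell in both without overlap (-1.01 ± 0.08 and -0.61 ± 0.08), and its interaction was 0.39 ± 0.11 (limma adjusted p = 0.315). Pde10a had an interaction of 0.43 ± 0.13. The dopamine receptor genes Drd1a (the table's symbol for Drd1) and Drd2 fell in input (-0.71 ± 0.15 and -0.73 ± 0.15) and did not pass in IP, at -0.42 ± 0.15 and -0.36 ± 0.15. Their interactions, 0.28 ± 0.21 and 0.37 ± 0.21, had intervals that include 0. The adenosine receptor gene Adora2a, the sodium channel subunit gene Scn4b and Ryr1, a calcium release channel, fell in both, with interactions of 0.29, 0.49 and 0.66. Penk, the enkephalin precursor of indirect-pathway neurons, fell in input (-1.18 ± 0.19) and in IP (-1.10 ± 0.19), and its interaction of 0.07 ± 0.27 changed sign when single libraries were left out.

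**Figure D3:**
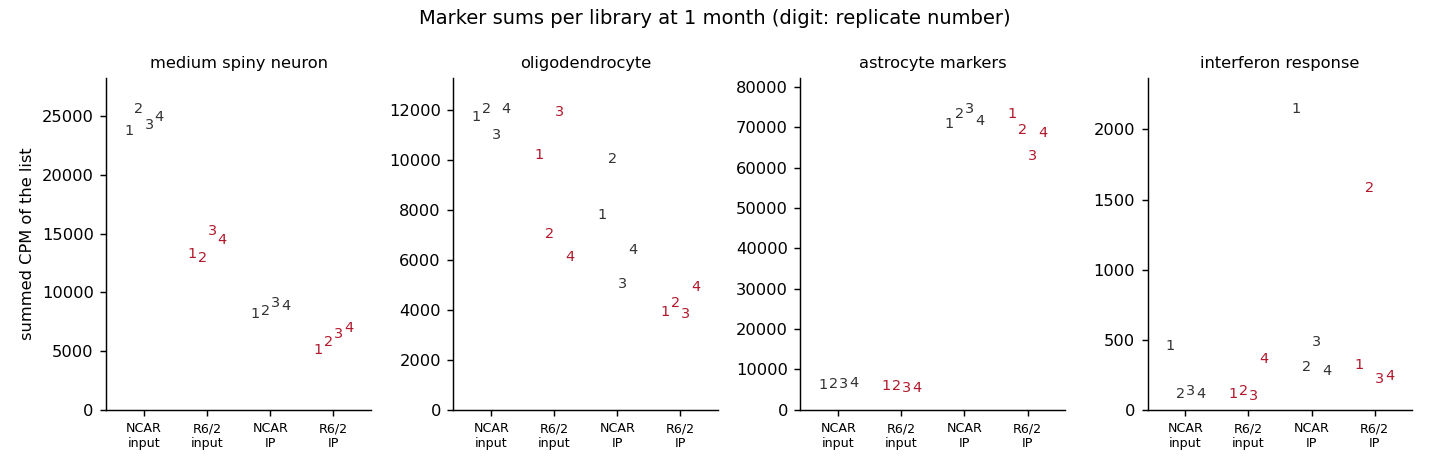
Summed CPM (y axes, from 0) of 4 marker lists in the 16 libraries, each shown by its replicate number; NCAR is grey and R6/2 red. Medium spiny neuron sums separate the genotypes in both RNA types, oligodendrocyte sums are split within R6/2 input, and 1 library in each group stands high for interferon response genes.

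Of 20 genes of the postsynaptic scaffold, 6 fell in input, against 5.65% of all genes, and 2 in IP, against 1.28%. The interaction was called for no member, was above 0 in 18 with a median of 0.23, and was positive with a p under 0.05 in 6, against 4.77% of all genes. Homer1, a scaffold of metabotropic glutamate receptors, read 466, 505, 489.7 and 477 CPM in NCAR input and 253, 253, 289.7 and 309 CPM in R6/2 input. Its IP levels were 137, 142, 158 and 144 CPM in NCAR and 96.9, 100.4, 109 and 115 CPM in R6/2. The genotypes did not overlap in either RNA type, and Homer1 fell in both (-0.81 ± 0.07 in input, -0.47 ± 0.07 in IP), with an interaction of 0.35 ± 0.11 (limma adjusted p = 0.349). Dlg2, the scaffold PSD-93, fell in input (-0.33 ± 0.07) and had -0.06 ± 0.07 in IP, with an interaction of 0.27 ± 0.09.

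Of 28 calcium and G protein signalling genes, 10 fell in input and 2 in IP, and 6 had a positive interaction with p under 0.05, against 5.65%, 1.28% and 4.77% of all genes. The input count was 5 without NCAR input 2, 6 without R6/2 input 2 or R6/2 input 4, and 3 without both R6/2 libraries, and the postsynaptic count was then 3 as well. Ryr3, a calcium release channel of the endoplasmic reticulum, was 305 to 383 CPM in NCAR input and 248 to 293 CPM in R6/2 input. In IP it was 107 to 127 CPM in NCAR and 117 to 144 CPM in R6/2, and its interaction was 0.43 ± 0.12. The ranges were apart in input and overlapped in IP. The related channel gene Ryr2 had -0.21 ± 0.06 in input, 0.07 ± 0.06 in IP and an interaction of 0.28 ± 0.09. Grm3, a metabotropic glutamate receptor that was higher in IP in NCAR, read 207, 207, 209 and 208 CPM in NCAR input and 187, 160.4, 192 and 172 CPM in R6/2 input. Its levels in IP were 944, 1038, 1048 and 968 CPM in NCAR and 1047, 1005, 1057 and 1255 CPM in R6/2. Neither difference passed (-0.23 ± 0.07 and 0.12 ± 0.07), and its interaction was 0.35 ± 0.10 (limma adjusted p = 0.336).

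Of 24 pan-neuronal genes, 7 fell and 2 rose in input, against 5.65% and 2.78% of all genes. In IP 0 passed in limma, with 7 at an unadjusted p under 0.05, against 2469 of all 15901 genes. The median interaction was 0.09. Stmn2, a microtubule regulator of axons, rose in input (60.7 to 69.3 CPM in NCAR, 93.1 to 113 CPM in R6/2) and had 0.12 ± 0.11 in IP, with an interaction of -0.52 ± 0.15. The NMDA receptor subunit gene Grin2b and the kinase gene Camk2b fell in input and did not pass in IP, with interactions of 0.52 ± 0.18 and 0.26 ± 0.11. Of 20 striatal interneuron genes, 8 fell in input and 2 in IP, against 5.65% and 1.28% of all genes, with a median interaction of 0.10. Nos1, the neuronal nitric oxide synthase, had -0.48 ± 0.13 in input, -0.06 ± 0.13 in IP and an interaction of 0.42 ± 0.19; the potassium channel gene Kcnc1 had an interaction of 0.31 ± 0.15. The peptide gene Crh was near the lower end of detection, at 1.79 to 3.4 CPM in NCAR input, 0.105 to 0.413 CPM in R6/2 input, 0.443 to 0.712 CPM in NCAR IP and 0.114 to 0.256 CPM in R6/2 IP. It fell in input, did not pass in IP (adjusted p = 0.0818) and had an interaction of 2.14 ± 0.62. Of 17 immediate early genes, 1, Egr3 (-0.90 ± 0.14), fell in input, against 5.65% of all genes. In IP 0 passed, against 1.28% called lower over all genes, with 2 at an unadjusted p under 0.05. The interaction of the 17 genes had a median of 0.32. It was above 0 in 14 and below 0 in 3, with 0 at an unadjusted p under 0.05. Egr3 had -0.56 ± 0.14 in IP.

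Of 30 astrocyte markers, 5 fell in input, against 5.65% of all genes, and 3 in IP (Gfap, Gja1 and Itih3), against 1.28%. At an unadjusted p under 0.05 there were 14 in input and 10 in IP, against 3652 and 2469 of all 15901 genes. The median interaction was 0.06, between -0.01 and 0.09 over the fits that leave out 1 library. The interaction was above 0 in 21 members and below 0 in 9. At an unadjusted p under 0.05, 2 were positive and 0 negative, against 4.77% and 3.71% of all genes. The IP count was 0 without NCAR IP 2, 5 without NCAR IP 1 and 1 without R6/2 IP 1, R6/2 IP 2 or R6/2 IP 4. The input count was 11 without NCAR IP 1. The summed level in IP was 70802 to 74617 CPM in NCAR and 62980.5 to 73318 CPM in R6/2, overlapping ranges. Gfap, the intermediate filament of astrocytes, read 1920.2, 1248, 1019.8 and 1105 CPM in NCAR IP and 775, 745, 807 and 625 CPM in R6/2 IP, with no overlap. In input it read 145, 116, 80.6 and 113 CPM in NCAR and 78.7, 57.5, 60.9 and 45.9 CPM in R6/2, also with no overlap. It fell in both (-0.80 ± 0.20, adjusted p = 0.0496; -0.90 ± 0.20, adjusted p = 0.00965) with an interaction of 0.10 ± 0.28, whose sign changed when single libraries were left out. Gja1, which encodes connexin 43, fell in IP (-0.31 ± 0.07) and had -0.23 ± 0.07 in input. Itih3, an inhibitor heavy chain that binds hyaluronan, fell in both (-1.15 and -1.17).

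Gli3, a transcription factor of Hedgehog signalling, was the astrocyte marker of smallest interaction p. In input it fell from 31.5, 29.6, 25.2 and 25.6 CPM in NCAR to 19.9, 15.3, 20.3 and 16.0 CPM in R6/2, with no overlap (-0.65 ± 0.11, adjusted p = 0.00198). In IP, where its level was higher, it read 115, 109.9, 121 and 114 CPM in NCAR and 135, 159.5, 111 and 129 CPM in R6/2, overlapping ranges (0.21 ± 0.11). Its interaction was 0.86 ± 0.16, with a 95% interval of 0.52 to 1.20 and an adjusted p of 0.106, and it passed only without R6/2 IP 3. Slc4a4, a sodium bicarbonate cotransporter, fell in input (338 to 423 CPM in NCAR, 274 to 288 CPM in R6/2) and was 1442 to 1919 CPM in NCAR IP and 1335 to 1585 CPM in R6/2 IP. Its interaction was 0.30 ± 0.12.

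Of 24 cholesterol genes, 4 fell in input, against 5.65% of all genes, and 3 in IP, against 1.28%, 1 of them in both. Srebf2, the transcription factor that drives the pathway, read 109.9, 116, 119.6 and 115 CPM in NCAR input and 69.7, 81.6, 72.7 and 81.0 CPM in R6/2 input. The IP libraries had 201, 216, 231 and 227 CPM in NCAR and 213, 242, 162 and 197 CPM in R6/2. The genotypes were apart in input (-0.60 ± 0.10) and overlapped in IP (-0.12 ± 0.10), and the interaction was 0.48 ± 0.14. The mevalonate pathway kinase gene Pmvk had 0.09 ± 0.09 in input and -0.24 ± 0.09 in IP, with an interaction of -0.33 ± 0.12.

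Oligodendrocyte markers had more negative genotype differences in IP than in input, though the interaction was called for none of them. The 24 members share the same 16 libraries, so their signs are not independent of each other. The list as a whole was not tested. All 24 had an interaction below 0, with a median of -0.35 that lay between -0.59 and -0.20 over the alternatives; 2, Nkx6-2 and Enpp2, had a p under 0.05, against 3.71% of all genes. In IP 7 fell, against 1.28% of all genes, and in input 1, Aspa, against 5.65%, with medians of -0.71 and -0.37. Summed levels were 7801, 10047, 5043 and 6411 CPM in NCAR IP and 3922, 4281, 3833 and 4918 CPM in R6/2 IP. In input they were 11745, 12072, 11022 and 12039 CPM in NCAR and 10203, 7057, 11935 and 6117 CPM in R6/2. R6/2 input 2 and 4 were thus low and R6/2 input 3 at the NCAR level, and the IP groups did not overlap. The IP count moved with single libraries: it was 0 without R6/2 IP 1 or NCAR IP 2, 2 without R6/2 IP 3, 4 without R6/2 IP 4, 11 without R6/2 input 4 and 15 without NCAR IP 3. The input count lay between 0 and 5, and the part of dissection or of white matter in these sums was not tested.

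Of the oligodendrocyte genes, the iron carrier gene Trf read 581, 746, 397 and 479 CPM in NCAR IP and 292, 396, 258 and 309 CPM in R6/2 IP. In input it read 545, 609, 498 and 596 CPM in NCAR and 499, 390.2, 529 and 362 CPM in R6/2, and its interaction was -0.44 ± 0.24. Enpp2, which encodes autotaxin, fell in IP (-0.53 ± 0.12, with ranges of 244 to 377 CPM in NCAR and 202 to 224 CPM in R6/2) and had -0.15 ± 0.12 in input, an interaction of -0.38 ± 0.17. Nkx6-2, a transcription factor of the lineage, had -0.12 ± 0.17 in input and an interaction of -0.57 ± 0.24, and Cldn11, a tight junction protein of myelin, had -0.49 ± 0.30. Microglia markers were low in IP, at a summed 71.6 to 82.1 CPM in NCAR and 58.0 to 76.7 CPM in R6/2, against 641 to 883 and 532 to 698 CPM in input. Of 15 members, 11 had an interaction below 0 and 4 above, with a median of -0.21. In IP 1 fell, against 1.28% of all genes, and in input 1 other, against 5.65%. The member that fell in IP was Tmem119, which marks resident microglia (-0.90 ± 0.16, adjusted p = 0.0118). Its level was low, at 0.881 to 1.24 CPM in NCAR IP and 0.454 to 0.653 CPM in R6/2 IP. Siglech read 0.846 to 1.43 CPM in NCAR IP and 1.09 to 2.92 CPM in R6/2 IP. The interaction was -0.60 ± 0.23 for Tmem119 and 0.83 ± 0.37 for the lectin gene Siglech, the members of smallest p.

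Energy metabolism and translation genes had no calls: of 20 glucose and lactate, 25 oxidative phosphorylation and 29 ribosomal protein genes, 0 passed in limma in either RNA type or for the interaction. Over all genes 2.78% were called higher and 5.65% lower in input, and 0.623% and 1.28% in IP. Lists of this size hold few calls at those shares. Interactions were below 0 in 13, 21 and 16 members of the 3 lists and above 0 in 7, 4 and 13. At an unadjusted p under 0.05 the 3 lists held 1, 2 and 0 genes in IP, 2, 2 and 2 in input, and 0 each for the interaction. Over all 15901 genes there were 2469 in IP, 3652 in input and 1349 for the interaction. Among 17 chaperones 1 was called, Hspd1, the mitochondrial chaperonin, which rose in input (0.19 ± 0.05), against 2.78% of all genes. Hspd1 had -0.04 ± 0.05 in IP and an interaction of -0.24 ± 0.08. The interaction was below 0 in 15 chaperones and above 0 in 2, with a median of -0.20. Of 18 interferon response genes, 0 passed or reached an unadjusted p under 0.05 in any of the 3 contrasts, with a median interaction of -0.30.

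The remaining lists are read against the same shares of all genes, 1.28% lower in IP and 5.65% lower in input. At an unadjusted p under 0.05 there were 2469 of all 15901 genes in IP and 3652 in input. Of 15 endothelial and mural markers, 1 fell in IP and 0 in input, with 10 and 3 at an unadjusted p under 0.05; Pecam1, an endothelial adhesion molecule, had -0.74 ± 0.20 in IP and -0.28 ± 0.20 in input. Of 13 measured ependymal and choroid plexus markers, 2 fell in IP and 1 in input, Rsph1, a ciliary radial spoke gene, among those in IP (-0.94 ± 0.18; input -0.58 ± 0.18). Of 12 oligodendrocyte precursor genes, 0 passed in either RNA type, with 5 and 2 at an unadjusted p under 0.05 in IP and input. Interactions were below 0 in 13 endothelial and mural, 10 ependymal and choroid plexus and 9 precursor members. They were above 0 in 2, 3 and 3, with medians of -0.18, -0.36 and -0.11, so negative interactions were not particular to oligodendrocyte markers. Of 13 pan-reactive astrocyte genes 1 fell in IP and 2 in input, of 11 measured A1 genes 0 and 1, and of 12 A2 genes 0 and 0, with 0 at an unadjusted p under 0.05. The A1 gene was Amigo2, an adhesion molecule, with -0.52 ± 0.09 in input, -0.21 ± 0.09 in IP and an interaction of 0.31 ± 0.13. Of 18 transport and buffering genes of astrocytes, 2 fell in IP and 4 in input, and of 18 synapse-regulating and matrix genes 1 in IP, Sparc, a matrix protein (-0.96 ± 0.23; input -0.53 ± 0.23). Of the blood genes only Alas2 was in the table, and it was not called.

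**Figure D4:**
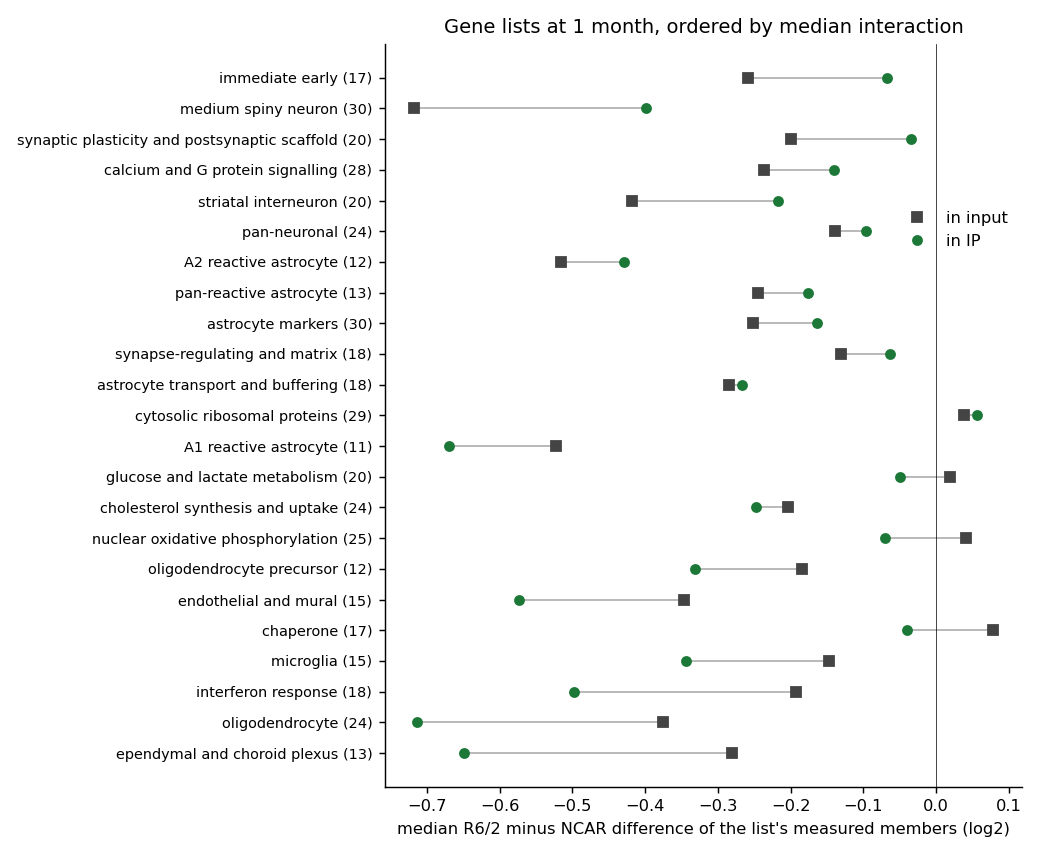
Median R6/2 minus NCAR difference (x axis, log2) of the measured members of 23 gene lists in input (squares) and in IP (circles), with the number of measured members in brackets. The medium spiny neuron list lies at -0.72 in input and -0.40 in IP, and the oligodendrocyte list at -0.37 in input and -0.71 in IP.

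The same contrast in other libraries, at 2 and 3 months, gave a few calls: 9 of 15593 genes at 2 months (0.0577%), all positive, and 24 of 15633 at 3 months (0.154%), 16 positive and 8 negative. Leaving out 1 library moved the 2-month count by over 1.5 times for 14 of 16 libraries, from 0 (without NCAR input 1, NCAR input 4 or NCAR IP 4) to 19 (without R6/2 IP 1). It moved the 3-month count that far for 12 of 16, from 9 (without NCAR IP 4 or R6/2 input 3) to 128 (without NCAR IP 2). At 1 month 9 of those 9 and 23 of those 24 had the same sign. Of the 1329 genes with p under 0.05 at 1 month that were tested at all ages, 83.8% had the same sign at 2 months and 86.6% at 3 months, against 65.0% and 64.4% of all genes. The ages share no library, and the later ages carry another run label, so age and run cannot be told apart.

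Abhd11os was called at 2 months (2.32 ± 0.31, adjusted p = 0.0132) and had 1.99 ± 0.44 at 3 months. Chst1 (0.50 and 0.48), Rps6ka4 (0.70 and 0.51), Cnr1 (0.83 and 0.70) and Gli3 (1.19 and 1.11) had values of the same sign at 2 and 3 months, none called. Pde1c had 0.18 ± 0.20 and 0.33 ± 0.18, and Adam23 -0.07 ± 0.18 and 0.21 ± 0.23, so that the value of Adam23 at 2 months lay on the other side of 0. Of the negative genes, Fam126a (-0.63 and -0.59), Ildr2, Fam3c and Gdap1l1 had negative values at both later ages. Pccb had -0.15 ± 0.14 and 0.05 ± 0.13, and Tctn2 0.02 ± 0.14 and -0.42 ± 0.17. Sorcs2, a sorting receptor of the VPS10 family, Gpr153, an orphan G protein-coupled receptor, and Trank1 were called at both later ages and are named for that. Sorcs2 had 0.49 ± 0.15 at 1 month (adjusted p = 0.353), 1.15 ± 0.16 at 2 months and 1.09 ± 0.13 at 3 months. Gpr153 had 0.82 ± 0.17 at 1 month, 1.11 ± 0.18 at 2 months and 1.09 ± 0.20 at 3 months, and Trank1 0.76 ± 0.15, 1.09 ± 0.18 and 1.45 ± 0.22.

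At 1 month Gpr153 read 26.6, 29.1, 31.3 and 27.1 CPM in NCAR input and 16.3, 15.8, 16.2 and 13.5 CPM in R6/2 input. The IP values were 22.6, 27.9, 32.4 and 29.3 CPM in NCAR and 25.4, 32.2, 22.1 and 27.6 CPM in R6/2. Trank1 fell in input (710.4 to 888 CPM in NCAR, 466 to 579 CPM in R6/2) and was 137 to 196 CPM in NCAR IP and 163 to 188 CPM in R6/2 IP. Sorcs2 was 121 to 141 CPM in NCAR input, 89.1 to 96.0 CPM in R6/2 input, 154 to 239.5 CPM in NCAR IP and 197 to 215 CPM in R6/2 IP. For these 3 genes the genotypes were apart in input and overlapped in IP.

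**Figure D5:**
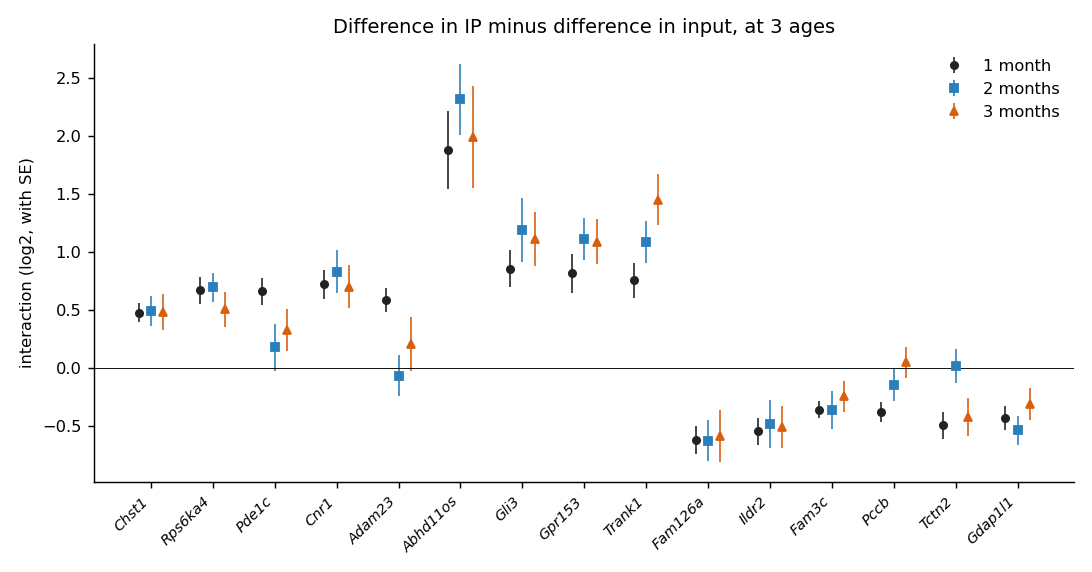
Interaction (y axis, log2, with SE) of 15 genes at 1, 2 and 3 months, each age from its own 16 libraries. The positive genes stay above 0 at all 3 ages except Adam23 at 2 months, and the negative ones stay below 0 except Pccb at 3 months and Tctn2 at 2 months.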

How the data were processed

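The values deposited by the authors are log2 CPM per gene, 1 file a library; alignment and counting tools named in the submitters' processing notes are STAR, HTSeq, edgeR and limma, without versions, with build mm10. Their order, the annotation and the use of strand are not given in the sources used here. Whole reads were recovered from the steps of the log2 values (100% of values whole within 0.01, prior count 0.25) for the 48 libraries of R6/2 and NCAR. Read totals are 44.17 to 71.26 M in IP and 29.59 to 43.52 M in input at 1 month, and the precision of a gene is given by its SE.

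The 1-month table holds 15905 genes; the 2 symbols with more than 1 row were left out, and 15901 were tested. A filter on low values, which asked for 10 reads, scaled to the median depth, in 4 or more libraries and 15 reads in all, removed 0. Log2 CPM was computed anew from the reads with TMM scaling over the 16 libraries, which differs from the deposited scaling by at most 0.0353%. A model with 4 group means was fitted with limma 3.58.1 in R 4.3.3 (lmFit, eBayes with a mean trend, Benjamini-Hochberg adjustment over all genes, called under 0.05), with no covariate. The 2- and 3-month libraries were fitted in the same way, each age alone. A level is reads per M reads of the scaled library. An SE is that of the fit. Alternatives changed the scaling, prior count, filter, spread model and test (voom), fitted each RNA type alone, and left out libraries. The fit was checked on simulated counts with independent libraries and the same spread setting for every gene and group. That check does not cover the unequal spread of the groups or libraries that share mice.

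The genes named are Htt, the 6 of smallest p on each side with a mean of at least 5 CPM (none was called), and members of smallest p of each list; some list members are counted but not reported singly here. Others were added after their values were seen. The genes and lists were chosen with earlier results of these data known. List symbols were matched to the table through RefSeq synonyms. Coordinates are from GENCODE vM21 on GRCm38 (mm10), and sequences from RefSeq (GRCm38.p6). Pairs of libraries of a group differed by more than sampling noise, so each was counted.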

Additional observations from a re-analysis of the deposited data

Results flagged for a closer look

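In 10 of 156 groups of 4 libraries that were examined, 1 library stood far from the other 3, and chance alone gives about 1 in 20. Summed interferon response genes stood high in 1 library of each group, at 2149 CPM in NCAR IP 1, 1582 CPM in R6/2 IP 2, 451 CPM in NCAR input 1 and 359 CPM in R6/2 input 4. Summed microglia markers stood high in NCAR input 1, at 883 CPM. Of single genes, Fam3c stood high in NCAR IP 1 (108 CPM), Gdap1l1 in NCAR IP 4 (48.5 CPM) and in NCAR input 1 (31.5 CPM) and Wsb1 in R6/2 IP 1 (16.9 CPM). Rian stood low in NCAR IP 1 (56.9 CPM).

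The genotype difference differed between IP and input by the limma test at later ages in 4 of the genes named. At 2 months the interaction was 2.32 for Abhd11os, 1.11 for Gpr153, 1.15 for Sorcs2 and 1.09 for Trank1, and at 3 months 1.09 for Gpr153, 1.09 for Sorcs2 and 1.45 for Trank1.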

How the results depend on the processing

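Over 28 alternatives, 1964 of 1986 recomputed interactions of 71 genes kept their direction and their side of the threshold, 10 passed the threshold and 12 changed sign. Those that changed sign were Gfap (-0.030 without NCAR input 1 in a range up to 0.29 over the libraries left out, also without NCAR IP 3 or R6/2 input 4, and -0.082 without R6/2 input 2 and 4), Gm12695 (-0.12 without NCAR input 1 in a range up to 0.32, also without NCAR IP 4, and -0.055 without the 4 libraries highest in interferon genes) and Penk (-0.049 without NCAR IP 2 in a range up to 0.30, also without R6/2 input 2, R6/2 IP 3 or R6/2 IP 4, and -0.060 without R6/2 input 2 and 4); the cause was not tested. Leaving out 1 library gave 0 to 6 interaction calls at 1 month, 103 to 552 calls in IP and 748 to 1929 in input, 0 to 19 interaction calls at 2 months and 9 to 128 at 3 months. Weights by group gave 126 calls in IP and 2204 in input, the 8 IP libraries alone gave 12, and read totals alone gave 2080 in input. Sets of libraries chosen after seeing the data were also left out: input calls were 2306 without NCAR IP 1 and R6/2 IP 2, IP calls 560 without the 4 libraries highest in interferon genes, and without R6/2 input 2 and 4 there were 408 input calls and 1 interaction call, Sds, which had 0 reads in the 2 R6/2 input libraries left, so that its size depends on the prior count. The settings not named here moved none of these counts over all genes by over 1.5 times. Read totals alone moved the median of all genes from -0.04 to -0.38 for IP over input in NCAR, and by less than 0.1 in the other contrasts. No paired analysis was possible because the labels tie no IP library to an input library and give each library number once. Gbp2, Iigp1 and Slc17a7, genes chosen after their values were seen, ranked the 4 NCAR libraries in the same order in IP and in input. In R6/2 the orders by library number differed between IP and input. Library numbers only follow the order of listing in the series, so differing orders cannot tell whether mice are shared. In R6/2, Gbp2 and Iigp1 were highest in IP 2 and input 4, and Slc17a7 in IP 3 and input 1. Slc17a7 was lowest in R6/2 IP 2 (1.79 CPM) and R6/2 input 4 (4.60 CPM). Whether IP and input libraries share mice was not tested.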
